A study of Bos taurus with 8 samples.

Results

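Immediate early response genes are those a cell transcribes within minutes of a stimulus, from factors already present and without new protein synthesis. A list of 35 of them was followed in bovine granulosa cells, the cells that line the ovarian follicle and make oestradiol. A probe of the array was taken for a gene when the platform annotation gave it that symbol, and where a gene had several probes the one with the highest mean intensity was used. In this way 32 of the 35 genes were measured, among 15216 named genes and 43794 probes in all. EGR2, KLF2 and CEBPB were not named by the annotation and were not analysed here. The cells were scraped from dominant follicles above 9 mm of Holstein cattle, whose ovaries came from a slaughterhouse and were kept on ice. The stage of the oestrous cycle of these cows was unknown. The DNA content of part of the cells of each follicle, read by flow cytometry, set its phase. From a larger number so classified, 4 growing and 4 plateau follicles were chosen for the arrays, and no treatment was given. Growing follicles held mainly cells with the diploid DNA content or more, and plateau follicles stood between these and atretic ones, whose arrays were not analysed here. Amplified RNA of a growing and a plateau follicle was hybridized together on each of 8 EmbryoGENE bovine arrays of 2 colours, so that 4 follicle pairs were each read on 2 arrays with the dyes exchanged. Whether the follicles came from separate animals and how they were matched into pairs are not stated. Unless another setting is named, the p-values of the fit used below therefore rest only on the spread among these 4 pairs, which limma draws towards that of all probes.

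The genes encode mainly transcription factors. Proteins of the FOS and JUN families pair to form AP-1, which binds the promoters of many genes of growth and stress, and the EGR, NR4A and KLF proteins are further DNA-binding factors. Others act back on the response, such as the ZFP36 proteins, which bind messenger RNAs and speed their decay. MAP kinases switch the genes on through SRF and its ELK partners, and cyclic AMP does so through CREB. In granulosa cells the surge of luteinizing hormone, which acts through cyclic AMP, is known to induce FOS, EGR1 and NR4A1 early.

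A level is given below as the log2 intensity of a follicle after normalization, averaged over its 2 arrays, and a ratio as the log2 of plateau over growing in a pair, averaged likewise. Ratios were computed from the scanner intensities, so that levels and ratios share 1 source, and they differed from the log2 ratios that the authors deposited by at most 0.03 in the mean of any of the 32 genes. Between 56.6% and 66.3% of probes were above background in Cy5 and between 59.5% and 79.1% in Cy3. Of the 32 genes, 23 were above background on all arrays in both stages, and the other 9 are named with their counts where they are described or, for NR4A2, were so on 7 of 8 growing and 6 of 8 plateau readings. The number of arrays limits the precision.

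Some follicles stood apart in transcripts that define granulosa cells. CYP19A1, which encodes the aromatase of oestradiol synthesis, had log2 levels of 11.92, 8.15, 15.78 and 14.81 in the growing follicles of pairs 1 to 4 and of 15.41, 8.06, 8.80 and 15.84 in the plateau follicles. It was therefore low in the growing follicle of pair 2 and the plateau follicles of pairs 2 and 3, and intermediate in the growing follicle of pair 1. AMH, the anti-Mullerian hormone gene, had 9.99, 11.62, 12.40 and 12.36 in growing and 12.57, 7.98, 8.06 and 13.63 in plateau follicles, again lowest in the plateau follicles of pairs 2 and 3. Over 9 granulosa cell markers, 8 lower and 1 higher in plateau follicles on average, the median level was 11.85, 11.62, 12.40 and 12.36 in growing and 12.57, 9.75, 8.80 and 13.63 in plateau follicles. GATM, the marker that was higher, ran opposite to CYP19A1 and AMH, with 11.86, 11.74, 8.54 and 8.32 in growing and 7.67, 13.48, 12.13 and 7.91 in plateau follicles. FOXL2 did not wholly follow CYP19A1 and AMH either. Without pairs 2 and 3, the mean ratios of GATM (-2.30) and FOXL2 (-0.53) were below 0 and those of the other granulosa markers above 0. No granulosa marker was at background in every follicle. The plateau follicle of pair 3 also had the highest median of 10 smooth muscle and fibroblast markers, all 10 with a mean ratio above 0, at 13.42 against 8.29 to 10.43 in the other follicles, with CNN1, a calponin of smooth muscle, at 15.34. The median of 10 leukocyte markers, 9 of them with a mean ratio above 0, was 8.32 and 8.53 in the plateau follicles of pairs 2 and 3 and 7.54 to 7.85 in the others, and CD68, a macrophage protein gene, was at 10.53 and 10.23 there against 8.04 to 8.58. The median of 5 theca markers ranged from 8.38 to 9.33 over all follicles, that of 6 endothelial markers from 7.83 to 8.17, and that of 5 red blood cell markers from 7.97 to 8.55. The median does not show KDR, the endothelial VEGF receptor gene, which had 10.48 and 11.27 in the growing follicles of pairs 1 and 2, 9.01 and 8.82 in the plateau follicles of pairs 2 and 3, and at most 7.62 in the other 4. Nor does the theca median show PDGFRA, which had a mean ratio of 1.07, or -0.40 without pairs 2 and 3. The other 4 theca markers had mean ratios below 0. ITGB2 and ITGAM, integrins of leukocytes, were above background on none of the arrays. In such bulk samples, fewer cells of a type and less RNA per cell cannot be told apart. Pairs 2 and 3 hold the 3 follicles of lowest CYP19A1, and the mean ratio without these pairs is given for each gene of the 32 whose mean turned its sign and for some others.

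**Figure D1:**
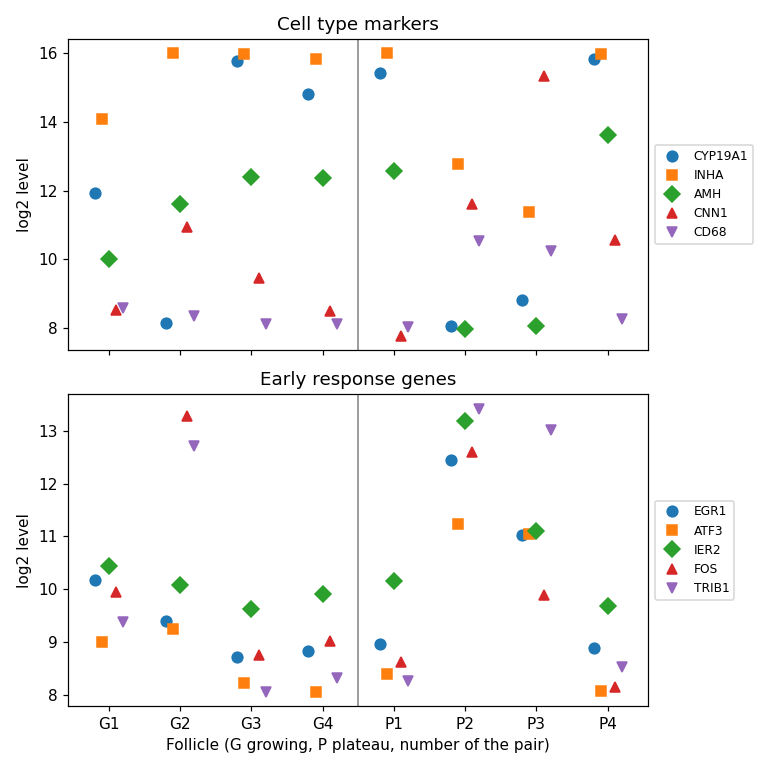
Log2 levels (vertical axis) of 5 cell type markers (top) and 5 early response genes (bottom) in each of the 8 follicles (horizontal axis, G growing, P plateau, numbered by pair); each point is the mean of the 2 arrays of a follicle. CYP19A1 lies at 8.15, 8.06 and 8.80 in G2, P2 and P3, while FOS and TRIB1 lie high in G2 and P2, and EGR1, ATF3, IER2 and TRIB1 in P2 and P3.

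The question asked of the arrays was which transcripts differ between growing and plateau granulosa cells. For the immediate early genes, 21 of 32 had a mean log2 ratio above 0, that is, were higher in plateau follicles on average, and 11 were below 0. Over all named genes 51.1% were above 0. The median ratio of the 32 genes was 0.10, and that of all named genes 0.0042. The 5 genes NR4A1, IER3, ATF3, EGR1 and IER2 had mean ratios of at least 1, which 0.559% of all named genes reached, and none had -1 or less. The 32 genes were brighter than all named genes (median log2 intensity 9.60 and 8.43), and this share was not matched for intensity. The study called a probe different at a fold change above 1.5, an unadjusted p under 0.05 in limma and an average log2 intensity not under 7. By this criterion 0 of the 32 genes were called in the fit used here. It called 0.678% of all probes (0.299% higher and 0.379% lower in plateau follicles) and 1.03% of named genes. The paper's own fit called more genes than the 297 probes called here, so the 0 need not hold for that fit. With the follicle pair as a block and a dye term, 673 probes were called, with ATF3, IER3 and NR4A1 among them. That fit took a single correlation of 0.62 between the arrays of a pair for all probes. For ATF3, IER3 and NR4A1 the dye-swap arrays differed from their mean by only 0.07, 0.18 and 0.13. The SDs among pairs were 1.62, 1.64 and 2.20, so the fit counts the arrays of a pair in part as separate for these genes. With the arrays taken as independent, 714 probes were called, with these genes and IER2 among them. No probe of the array passed an adjusted p of 0.05 in limma (lowest adjusted p = 0.9999), and the adjusted p of every immediate early gene was 0.9999. An unadjusted p under 0.05 was found for 1 of the 32, JUN, against 2.63% of all probes and 3.4% of named genes. The levels of growing and plateau follicles overlapped for each of the 32 genes, while they did not overlap for 1.52% of named genes.

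**Figure D2:**
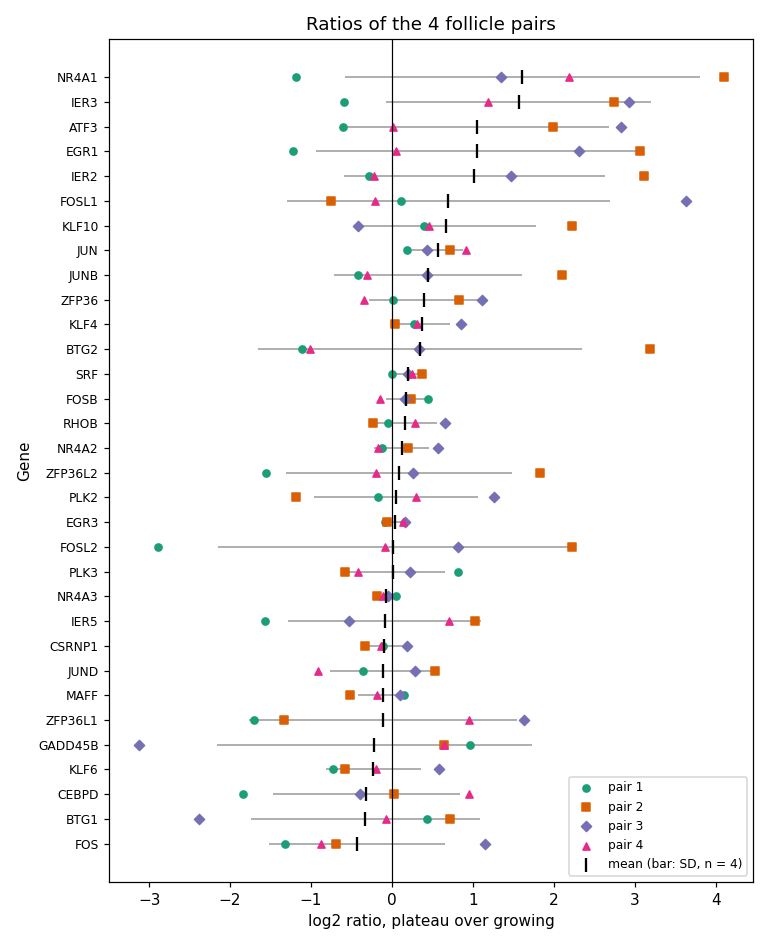
Log2 ratio of plateau over growing follicles (horizontal axis) for the 32 genes (vertical axis, ordered by the mean); symbols are the 4 follicle pairs, black ticks their mean and grey bars the SD (n = 4). The high means of NR4A1, IER3, ATF3, EGR1 and IER2 come with values below 0 in pair 1.

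The pairs differed in direction. In pair 1, 12 genes were higher and 20 lower in the plateau follicle, and 9 had a ratio below -1 and 0 a ratio above 1. In pair 2, 21 were higher and 11 lower, with 11 above 1 and 2 below -1, and in pair 3, 26 were higher and 6 lower, with 10 above 1 and 2 below -1. Pair 4 had 15 higher and 17 lower, with 2 above 1 and 1 below -1. Over all named genes, ratios above 1 made up 4.65%, 5.41%, 6.6% and 3.15% in pairs 1 to 4, and ratios below -1 made up 3.98%, 5.95%, 5.2% and 3.06%. These shares too were not matched for intensity. Without pairs 2 and 3, a choice made after the values were seen, the median ratio of the 32 genes was -0.09 in place of 0.10, 13 of the 32 were above 0 and 12 had turned their sign. The part that the low granulosa markers and the raised leukocyte and smooth muscle markers of these follicles play in the ratios was not tested.

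Of the FOS, JUN and ATF genes that make up AP-1, JUN alone was higher in the plateau follicle of every pair. JUN (probe EMBV3_37023), a basic leucine zipper protein that forms AP-1 with FOS proteins or with itself, had log2 levels of 9.27, 9.90, 8.82 and 8.26 in growing and 9.46, 10.62, 9.26 and 9.17 in plateau follicles. The ratios of pairs 1 to 4 were 0.19, 0.72, 0.44 and 0.92, all above 0, with a mean of 0.56 ± 0.32 (SD, n = 4 pairs), which is a 1.48-fold difference (unadjusted p = 0.0125 and adjusted p = 0.9999 in limma). It was thus just under the fold of the criterion, 0.58 on the log2 scale. In the log2 ratios that the authors deposited, the mean of JUN was 0.59 ± 0.35 (SD, n = 4 pairs) and it met the criterion (unadjusted p = 0.0139, adjusted p = 0.9999, limma), as it did after plain background subtraction. In each of these settings 313 of all probes met it. On the slide with plateau follicles in Cy5 the mean of JUN was 0.74, and on the slide with the dyes exchanged 0.39, where pair 1 was at -0.18. When the 8 follicles were compared without the pairing, the same mean had an unadjusted p of 0.216 in limma (adjusted p = 0.9999), with an SD among the 4 follicles of 0.70 in growing and 0.67 in plateau. JUNB, a JUN protein that is a weaker activator in many settings, had a mean ratio of 0.45 ± 1.16 (SD, n = 4 pairs), with 2.09 in pair 2 and 0.44, -0.42 and -0.31 in pairs 3, 1 and 4, or -0.37 without pairs 2 and 3. JUND, the JUN protein that resting cells keep, had -0.11 ± 0.65 (SD, n = 4 pairs), or -0.64 without those pairs.

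FOS itself did not follow JUN. FOS (probe EMBV3_35481), the partner that AP-1 gains after a stimulus, had levels of 9.95, 13.28, 8.75 and 9.03 in growing and 8.63, 12.59, 9.90 and 8.16 in plateau follicles. Both follicles of pair 2 were far above the rest, and the lowest was the plateau follicle of pair 4. The ratios of the pairs were -1.33, -0.69, 1.14 and -0.87, with a mean of -0.44 ± 1.09 (SD, n = 4 pairs, adjusted p = 0.9999, limma). Pair 3 was the only pair above 0, and leaving out the pair of the other sign narrows the spread by construction. Without it the mean was -0.96 and met the criterion (unadjusted p = 0.00495, adjusted p = 0.9999, limma), as did 419 of all probes. So did -1.10 without pairs 2 and 3, from pairs 1 and 4 alone (unadjusted p = 0.0101, adjusted p = 0.9996, limma). In that setting 1370 of all probes met it. The other probe of FOS, which was dimmer, had a mean ratio of 0.01 ± 0.17 (SD, n = 4 pairs).

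Of the other FOS proteins, FOSL1, which is induced later and lasts longer, was above background on 2 of 8 arrays in growing and 4 of 8 in plateau follicles. Its level was 11.21 in the plateau follicle of pair 3 and 7.23 to 8.98 in the other 7, which gave a ratio of 3.64 in that pair and a mean of 0.70 ± 1.99 (SD, n = 4 pairs), or -0.05 without pairs 2 and 3. FOSL2, above background on 6 of 8 and 7 of 8, had 11.03 in the growing follicle of pair 1 and 10.55 in the plateau follicle of pair 2, and 7.98 to 8.88 elsewhere. Its ratios, -2.89, 2.23, 0.81 and -0.08 in pairs 1 to 4, nearly cancelled (mean 0.02 ± 2.16, SD, n = 4 pairs), and their mean was -1.49 without pairs 2 and 3. The dimmer probe of FOSL2 had ratios of -0.28, 0.30, -0.08 and -0.04, and was at 8.02 in the growing follicle of pair 1. FOSB ran in opposite directions on the slides of either dye orientation. With plateau follicles in Cy5 its ratios were -0.76 to -0.36, and with the dyes exchanged 0.45 to 1.28, so that their mean of 0.17 ± 0.25 (SD, n = 4 pairs) rests on opposed readings. Its 2 dimmer probes had means of 0.05 and -0.06.

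ATF3 (probe EMBV3_20458), a stress-induced factor that pairs with JUN proteins, had levels of 9.01, 9.26, 8.22 and 8.06 in growing and 8.40, 11.24, 11.06 and 8.07 in plateau follicles. The plateau follicles of pairs 2 and 3 were above all others, and the remaining plateau follicles lay within the range of the growing ones. The ratios were -0.61, 1.98, 2.83 and 0.01 in pairs 1 to 4, with a mean of 1.05 ± 1.62 (SD, n = 4 pairs, adjusted p = 0.9999, limma). Without pairs 2 and 3 it was -0.30. MAFF, a small MAF protein without an activation domain, was above background on 4 of 8 arrays in growing and 7 of 8 in plateau follicles. Its levels were 7.81, 8.49, 7.83 and 7.85 in growing and 7.96, 7.97, 7.94 and 7.66 in plateau follicles, highest in the growing follicle of pair 2, and the mean ratio of MAFF was -0.11 ± 0.31 (SD, n = 4 pairs). CEBPD, a leucine zipper factor of the acute phase response, had 15.77, 15.89, 14.04 and 14.15 in growing and 13.94, 15.91, 13.64 and 15.10 in plateau follicles, where the ratio was -1.84, 0.02, -0.40 and 0.95 and the mean -0.32 ± 1.16 (SD, n = 4 pairs). It was higher in the growing follicles of pairs 1 and 2 than in those of pairs 3 and 4. Its other probe had ratios of -2.17, 1.21, -0.15 and 0.42, of which that of pair 2 was the farthest from the brighter probe. CEBPD had 1 saturated reading, and so did GADD45B.

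**Figure D3:**
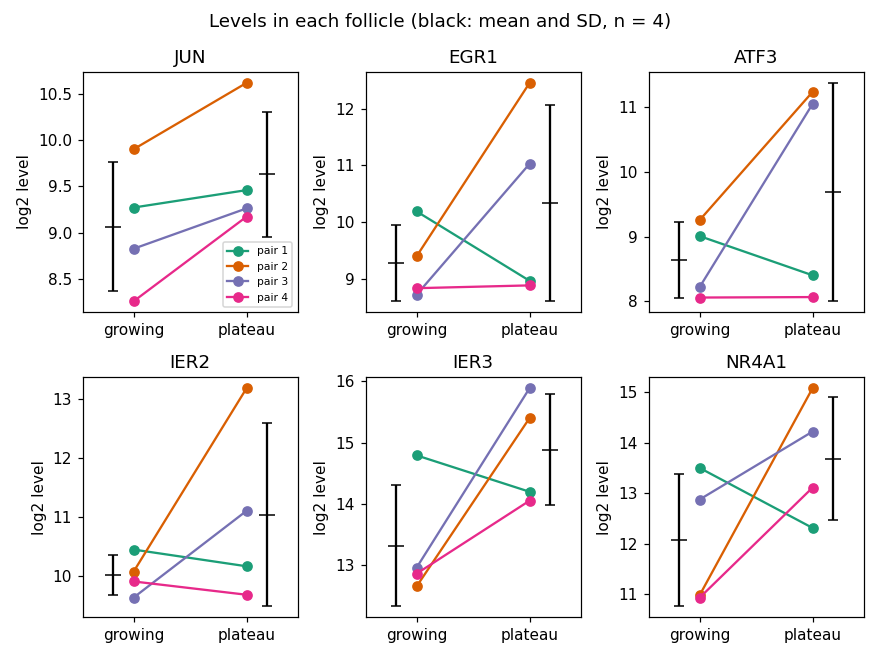
Log2 level (vertical axis) of JUN, EGR1, ATF3, IER2, IER3 and NR4A1 in growing and plateau follicles (horizontal axis); lines join the follicles of a pair, and black bars give the mean and SD (n = 4). JUN is higher in the plateau follicle of each pair, while the other genes are lower there in pair 1.

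EGR1 and NR4A1 had mean ratios above 1 that rested on a part of the pairs. EGR1 (probe EMBV3_11644), a zinc finger factor of the response to growth factors and luteinizing hormone, had levels of 10.18, 9.39, 8.72 and 8.83 in growing and 8.96, 12.46, 11.03 and 8.88 in plateau follicles. The plateau follicles of pairs 2 and 3 were above every growing follicle, and those of pairs 1 and 4 were below the growing follicles of pairs 1 and 2. Its ratios were -1.23, 3.06, 2.31 and 0.05, with a mean of 1.05 ± 1.99 (SD, n = 4 pairs, adjusted p = 0.9999, limma), and -0.59 without pairs 2 and 3. EGR3, a related factor that follows EGR1, was above background on 0 of 8 arrays in growing and 2 of 8 in plateau follicles, with a mean ratio of 0.04 ± 0.13 (SD, n = 4 pairs).

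NR4A1 (probe EMBV3_07255), an orphan nuclear receptor that regulates steroidogenic genes, had levels of 13.51, 10.98, 12.88 and 10.93 in growing and 12.32, 15.09, 14.23 and 13.12 in plateau follicles. The plateau follicles of pairs 2 and 3 were the highest, but the plateau follicle of pair 4 was also above the growing follicles of pairs 2, 3 and 4. The pairs had ratios of -1.19, 4.10, 1.35 and 2.18, with a mean of 1.61 ± 2.20 (SD, n = 4 pairs), a 3.05-fold difference (adjusted p = 0.9999, limma). Without pair 1, the only pair below 0, the mean was 2.54 and met the criterion (unadjusted p = 0.0128, adjusted p = 0.712, limma). So did 1538 of all probes without that pair, against 297 with all pairs. The mean of NR4A1 without pairs 2 and 3 was 0.50. By quantitative PCR in these and further follicles, the paper reported that NR4A1 tended to differ between the growing and plateau stages. That difference followed the paper's array profile but did not reach significance. NR4A2 and NR4A3, the other receptors of the family, had mean ratios of 0.12 ± 0.34 and -0.07 ± 0.10 (SD, n = 4 pairs). NR4A2 had -0.14 without pairs 2 and 3, and NR4A3 was above background on 1 growing and 1 plateau reading of 8.

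The IER genes were named for their early response. IER3 (probe EMBV3_35236), which modulates survival under stress, had levels of 14.79, 12.66, 12.97 and 12.87 in growing and 14.20, 15.40, 15.89 and 14.06 in plateau follicles. Every plateau follicle was above the growing follicles of pairs 2, 3 and 4, and the growing follicle of pair 1 lay within the plateau range. Its ratios were -0.59, 2.74, 2.92 and 1.19 in pairs 1 to 4, with a mean of 1.57 ± 1.64 (SD, n = 4 pairs), a 2.96-fold difference (unadjusted p = 0.0625 and adjusted p = 0.9999, limma). IER3 met the criterion when the 8 follicles were compared without the pairing (unadjusted p = 0.0263, adjusted p = 0.9999, limma) and without pair 1, where its mean was 2.28 (unadjusted p = 0.00501, adjusted p = 0.693, limma). In the comparison without the pairing, 305 of all probes met the criterion. Pair 1 was the only pair of IER3 below 0, and 1538 of all probes met the criterion without that pair. Without pairs 2 and 3 the mean was 0.30. IER2 (probe EMBV3_29423), a nuclear protein of the response, had 10.45, 10.07, 9.63 and 9.91 in growing and 10.16, 13.19, 11.11 and 9.68 in plateau follicles. It stood at 13.19 and 11.11 in the plateau follicles of pairs 2 and 3 and at 9.63 to 10.45 in the other 6, which gave ratios of -0.28, 3.11, 1.47 and -0.23 and a mean of 1.02 ± 1.62 (SD, n = 4 pairs, adjusted p = 0.9999, limma), or -0.25 without pairs 2 and 3. The other probe of IER2 had a mean of -0.03. IER5, which acts in the heat shock response, went both ways, with -1.57, 1.03, -0.53 and 0.70 in pairs 1 to 4 (mean -0.09 ± 1.19, SD, n = 4 pairs, and -0.43 without pairs 2 and 3). CSRNP1, a nuclear protein induced by AXIN1, was above background on 6 of 8 arrays in growing and 5 of 8 in plateau follicles and ranged little, at 8.17, 8.13, 7.91 and 7.92 in growing and 8.06, 7.80, 8.10 and 7.79 in plateau follicles, with a mean of -0.10 ± 0.22 (SD, n = 4 pairs).

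SRF and KLF4 were higher in the plateau follicle of every pair, by small amounts. With JUN they made 3 of 32 genes with this pattern, against 4.8% of all named genes, and 0 of 32 were lower in all 4 pairs, against 4.27%. SRF (probe EMBV3_03027), the serum response factor that binds the promoters of many of these genes, had 9.17, 8.83, 8.49 and 8.76 in growing and 9.17, 9.20, 8.68 and 9.01 in plateau follicles. The SRF ratios were 0.01, 0.37, 0.20 and 0.25, with a mean of 0.20 ± 0.15 (SD, n = 4 pairs, unadjusted p = 0.0856 and adjusted p = 0.9999, limma). The dye orientations differed for SRF, with a mean of 0.064 on the slide with plateau follicles in Cy5 and 0.34 on the other, and its ratio in pair 1 was the average of -0.39 and 0.40. KLF4 (probe EMBV3_14359), a Krüppel-like factor of growth arrest, was above background on 5 of 8 arrays in growing and 7 of 8 in plateau follicles. Its levels were 7.72, 8.47, 8.28 and 7.67 in growing and 7.99, 8.52, 9.13 and 7.98 in plateau follicles, and its ratios 0.27, 0.04, 0.86 and 0.30, with a mean of 0.37 ± 0.35 (SD, n = 4 pairs, unadjusted p = 0.0653 and adjusted p = 0.9999, limma). The stages overlapped for both genes. None of the 32 genes was higher in plateau follicles on all 8 single arrays, which 1.01% of named genes were, and JUN, KLF4 and SRF were on 7 of 8. KLF10, a factor induced by TGF-beta, had a mean of 0.67 ± 1.11 (SD, n = 4 pairs) with 2.23 in pair 2, and 0.43 without pairs 2 and 3. Its dimmer probe had a mean of 0.004, with 0.29 in pair 2. KLF6, which is induced by injury, had -0.23 ± 0.59 (SD, n = 4 pairs), or -0.46 without pairs 2 and 3.

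The genes that restrain the response or growth showed no common direction. ZFP36, which binds AU-rich elements of cytokine messages, had 9.72, 10.04, 9.06 and 9.66 in growing and 9.73, 10.87, 10.17 and 9.31 in plateau follicles, with ratios of 0.01, 0.83, 1.11 and -0.35 and a mean of 0.40 ± 0.69 (SD, n = 4 pairs). Its highest level was in the plateau follicle of pair 2, and without pairs 2 and 3 the mean was -0.17. ZFP36L1 had ratios of -1.71, -1.33, 1.63 and 0.95 (mean -0.11 ± 1.66, SD, n = 4 pairs) and ZFP36L2 of -1.55, 1.83, 0.26 and -0.20 (mean 0.09 ± 1.40, SD, n = 4 pairs). With pairs 2 and 3 left out, the mean of ZFP36L1 was -0.38 and that of ZFP36L2 -0.87. Over all pairs, their dimmer probes had means of -0.13 and 0.01. BTG1, an antiproliferative protein, had 14.87, 14.03, 14.92 and 15.14 in growing and 15.30, 14.74, 12.53 and 15.07 in plateau follicles. Only the plateau follicle of pair 3 was far from the others, and the mean of -0.33 ± 1.41 (SD, n = 4 pairs) became 0.36 without that pair and 0.18 without pairs 2 and 3. GADD45B, which responds to DNA damage and to TGF-beta, behaved alike, with 14.95, 14.30, 15.97 and 15.33 in growing and 15.92, 14.94, 12.84 and 15.98 in plateau follicles. Its ratios were 0.97, 0.64, -3.13 and 0.65, with a mean of -0.22 ± 1.95 (SD, n = 4 pairs). Without pair 3, its only pair below 0, the mean of GADD45B was 0.75 and met the criterion (unadjusted p = 0.00411, adjusted p = 0.9999, limma), as did 419 of all probes. The mean was 0.81 without pairs 2 and 3. BTG2, a target of p53, was instead highest in the plateau follicle of pair 2, at 14.69 against 10.70 to 12.66 in the other 7, and had a mean of 0.35 ± 2.0 (SD, n = 4 pairs). Without pairs 2 and 3 it was -1.06 and met the criterion (unadjusted p = 0.00455, adjusted p = 0.9996, limma), as did 1370 of all probes. This mean rests on pairs 1 and 4 alone, at -1.11 and -1.01. Pairs 2 and 3 were the only pairs of BTG2 above 0, and leaving out pairs of the other sign narrows the spread by construction.

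PLK2, a kinase of the centrosome cycle and of stress, passed background on 6 of 8 growing and 6 of 8 plateau readings, with 7.98, 9.09, 7.87 and 7.65 in growing and 7.82, 7.90, 9.13 and 7.94 in plateau follicles. It was highest in the growing follicle of pair 2 and the plateau follicle of pair 3, and its mean ratio was 0.05 ± 1.02 (SD, n = 4 pairs). PLK3, a kinase of the DNA damage response, had 0.01 ± 0.64 (SD, n = 4 pairs), or 0.20 without pairs 2 and 3. Its dimmer probe had a mean of 0.04 over all pairs. RHOB, a small GTPase that is quickly induced, had 12.46, 11.78, 12.07 and 12.18 in growing and 12.41, 11.55, 12.73 and 12.46 in plateau follicles, with a mean of 0.16 ± 0.39 (SD, n = 4 pairs). The RHOB ratios ran from -0.23 to 0.66, and their mean was 0.00013 without pair 3 and 0.35 on the slide with plateau follicles in Cy5 alone.

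**Figure D4:**
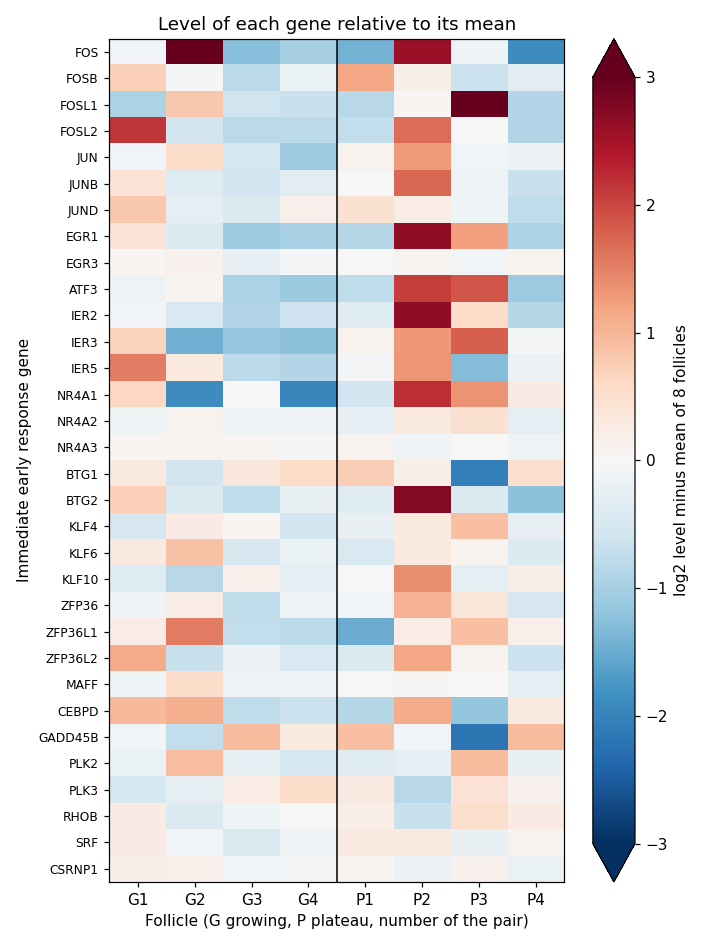
Log2 level of each of the 32 genes (rows, by family) in the 8 follicles (columns, G growing, P plateau, numbered by pair), as the difference from the mean of that gene; colours are limited at -3 and 3. Follicle P2 is above the mean for most genes, and G3, G4 and P4 are below it for most.

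The immediate early genes differed from pair to pair by more than most genes did. The SD of the ratio among the 4 pairs had a median of 1.10 over the 32 genes, and was above 1 for 18 of them (56.2%), against a median of 0.33 and 11.5% over all named genes. A wide spread was not particular to them. The median SD was 3.01 for the granulosa cell markers and 2.30 for the smooth muscle and fibroblast markers. It was 0.93 for the theca markers, 0.86 for 24 early response genes outside the 32, and 0.18 to 0.54 for the other lists used here. Among genes whose log2 intensity averaged 9 or more, the median was 1.18 for 20 immediate early genes and 0.66 for 5953 named genes, and the SD was above 1 for 70.0% and 24.4%. The dye-swap arrays of a pair differed from their mean by a median of 0.17 for the 32 genes and 0.15 for all named genes. This difference was above the SD among pairs for 4 of the 32, which were FOSB, SRF, EGR3 and NR4A3. The SD among pairs exceeded the mean ratio, taken without its sign, for 29 of the 32 genes, the others being JUN, KLF4 and SRF. The highest of the 8 levels lay in the plateau follicle of pair 2 for 12 of 32 genes, where 13.9% of all named genes had theirs, and in the growing follicles of pairs 3 and 4 for 0 and 1, against 8.37% and 11.8%. The lowest lay in the plateau follicle of pair 4 for 9, in the growing follicle of pair 3 for 7 and in the growing follicle of pair 4 for 5, against 12.4%, 10.4% and 10.3%. As deviations from the mean of each gene, the medians over the 32 genes were 0.20, 0.01, -0.45 and -0.31 in the growing follicles of pairs 1 to 4 and -0.07, 0.30, 0.05 and -0.24 in the plateau follicles, and all medians over all named genes lay between -0.02 and 0.01. The growing follicles of pairs 3 and 4 and the plateau follicle of pair 4, where most of the genes were low, were among the 4 follicles with the highest CYP19A1.

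**Figure D5:**
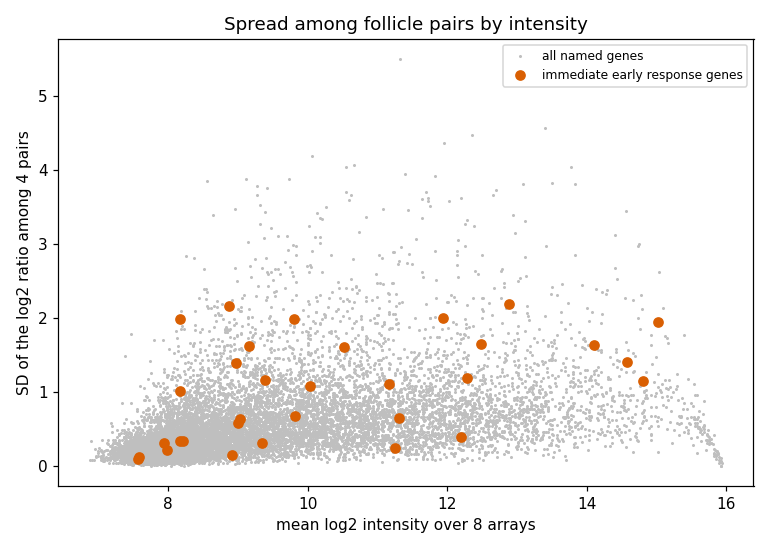
SD of the log2 ratio among the 4 follicle pairs (vertical axis) against mean log2 intensity (horizontal axis); grey points are all named genes and orange points the 32 immediate early genes. The median SD is 1.10 for the 32 genes and 0.33 for all named genes.

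Levels of FOS were compared over the 8 follicles with those of 8 other genes of the list. They were most alike for ZFP36 (Pearson r = 0.76, exact permutation p = 0.0291, Spearman rho = 0.67, exact permutation p = 0.0831, both two-sided, n = 8 follicles) and JUN (r = 0.75, exact permutation p = 0.0293, rho = 0.60, exact permutation p = 0.132). After Benjamini-Hochberg adjustment over the 8 relations no exact permutation p was under 0.05 (0.117 for both by Pearson's r, 0.256 and 0.265 by Spearman's rho). Without the follicles of pair 2, which were farthest from the median of FOS, r was 0.69 for ZFP36 and 0.12 for JUN, so the relation with JUN rests on them. For ATF3, EGR1 and JUNB r was 0.63, 0.59 and 0.53 (exact permutation p = 0.0646, 0.0906 and 0.16, rho = 0.71, 0.64 and 0.48 with exact permutation p = 0.0576, 0.0962 and 0.243), and 0.75, 0.86 and 0.74 without pair 2. For NR4A1, IER3 and FOSB r was 0.08, 0.06 and 0.05 (exact permutation p = 0.851, 0.879 and 0.91, rho = 0.19, 0.05 and 0.24 with exact permutation p = 0.665, 0.935 and 0.582), and 0.44, 0.61 and 0.06 without pair 2. The follicles of a pair were read on the same arrays, so their levels are not wholly independent, and a stage holds too few follicles for a relation within it.

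Some other genes of the response, named for the size of their mean ratio, had high levels in some of the same follicles. Of 25 listed early response genes outside the 32, 24 were named on the array, 18 with a mean ratio above 0 and 6 below, with a median of 0.11, and 0 met the criterion. CCN1, a matrix protein gene that SRF and YAP activate, had levels of 14.38, 12.07, 11.44 and 10.31 in growing and 13.10, 15.27, 15.90 and 11.64 in plateau follicles and a mean ratio of 1.93 ± 2.50 (SD, n = 4 pairs). CCN2, its relative that TGF-beta induces, had 1.74 ± 3.17 (SD, n = 4 pairs), with a level of 15.92 in the plateau follicle of pair 3, and SGK1, a kinase gene of the response to steroids and serum, 0.87 ± 3.76 (SD, n = 4 pairs), with 14.06 there. TRIB1, a pseudokinase gene, was at 12.71 in the growing follicle of pair 2 and at 13.42 and 13.01 in the plateau follicles of pairs 2 and 3, and at 8.06 to 9.39 in the other 5, with a mean ratio of 1.19 ± 2.63 (SD, n = 4 pairs). MYC, the growth factor response gene, had 1.24 ± 3.10 (SD, n = 4 pairs), and DUSP1, the phosphatase that turns MAP kinases off, 0.65 ± 1.20 (SD, n = 4 pairs). The mean ratio without pairs 2 and 3 was 0.028 for CCN1, -0.38 for CCN2, -1.13 for MYC, -0.46 for TRIB1, -0.014 for SGK1 and 0.063 for DUSP1. These 6 had the mean ratios of largest size in the upstream and early response lists and were named for that reason. Their high levels in the same follicles follow in part from this choice and are no separate support. The 17 upstream kinases and factors named on the array of 19 listed, such as MAP kinases, ELK factors and CREB, were 9 above and 8 below 0 (median 0.03), and 0 met the criterion. Of 7 named AP-1 partners of 8 listed, 2 were above and 5 below 0 (median -0.05), and 0 met it. Among the cell type markers only LYZ, the lysozyme gene of leukocytes, met the criterion, at 0.61 ± 0.42 (SD, n = 4 pairs, adjusted p = 0.9999, limma), above background on 1 of 8 arrays in growing and 5 of 8 in plateau follicles.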

How the data were processed

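The deposited scanner files gave Cy3 and Cy5 intensity for 45220 spots on each of 8 arrays. The deposited table held log2 ratios that the authors had made by background subtraction, loess within and quantile normalization between arrays; it correlated with the ratios from plain subtraction at 0.9997 to 0.9999 per array. Its median array ratios were -0.027 to -0.003. Here median intensities were corrected by normexp (offset 50), loess normalized within arrays and quantile normalized between arrays (limma 3.58.1, R 4.3.3). Control spots and 12 to 30 flagged spots per array were left out. Background was the mean plus 2 SD of 757 negative and dark spots. The dye-swap arrays of each pair were averaged first, and the 4 pairs were tested against 0 with limma over 43794 probes (Benjamini-Hochberg). Pairs were read from the position on the 2 slides: arrays of the same position correlated at 0.58 to 0.77, those of other positions at -0.44 to 0.19. The dye orientation follows the labels of each channel. Deviations of the ratios from their mean on each slide correlated at 0.76 to 0.87 within a position. Of the probes, 21790 had 1 gene symbol and 22004 none that could be used, and 1524 symbols were updated. Genes with the level in every follicle are those with a mean log2 ratio of at least 1 or at most -1, those at the criterion, those of 1 direction in all pairs, and the first of each family. The genes and lists were chosen with earlier results of these data known, and a further alternative, without pairs 2 and 3, after the values were seen. Values of single pairs for the other genes, and the markers shown by follicle, were chosen after their values were seen. The scripts were tested on simulated data.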

Additional observations from a re-analysis of the deposited data

Results flagged for a closer look

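Of 64 groups of 4 follicles checked (32 genes in each stage), 6 had a follicle far from the other 3, and chance gives about 1 in 20. In growing follicles, FOSL2 was at 11.03 in pair 1, where the nearest other was 8.33. IER3 was at 14.79 in the growing follicle of pair 1, with the nearest at 12.97. NR4A2 and MAFF were at 8.27 and 8.49 in the growing follicle of pair 2, with the nearest at 8.07 and 7.85. MAFF was also lowest in the plateau follicle of pair 4, at 7.66, with the nearest at 7.94. PLK2 was at 9.13 in the plateau follicle of pair 3, with the nearest at 7.94.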

How the results depend on the processing

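None of the 32 genes met the criterion in the limma fit reported above; 1 did with the deposited ratios (JUN, 0.59), 1 with plain background subtraction (JUN), 4 with the 8 arrays taken as independent (ATF3, IER2, IER3 and NR4A1), 1 with 8 follicle profiles and no pairing (IER3), 2 on slide 1 (JUN and IER3), 1 on slide 2 (FOSB, 0.84), 0 to 3 when each pair was left out, and 3 without pairs 2 and 3 (FOS, BTG2 and GADD45B). With the follicle pair as a block and a dye term, 3 of the 32 genes (ATF3, IER3 and NR4A1) and 673 probes met it, against 297 probes in the fit above. The probe count was 313 with the deposited ratios, 313 with plain background subtraction and 305 with 8 follicle profiles and no pairing. It was 714 with independent arrays, 1049 on slide 1, 851 on slide 2, 338 to 1538 with each pair left out and 1370 without pairs 2 and 3. The fit of independent arrays counts the 2 dye-swap arrays of a pair as separate, so its p-values do not measure the spread among pairs. The block fit took a single correlation of 0.62 for all probes. For ATF3, IER3 and NR4A1 the arrays of a pair were far closer to each other than the pairs were. Its p-values for these genes therefore count such arrays in part as separate. Each slide holds 1 dye orientation, so stage and dye cannot be told apart on a single slide. Genes higher in all pairs numbered 3, and 1 among those of mean log2 intensity of at least 9, 2 without quantile normalization and 4 on slide 1. They numbered 3 to 7 with each pair left out and 5 without pairs 2 and 3. Fewer pairs share a sign more often by chance, and the share of all named genes was not computed for these settings. Whether the higher counts differ from that share is therefore not known. This count could not be had for fits that do not give pairs. The median ratio ran from -0.09 (without pairs 2 and 3) to 0.34 (leaving out 1 pair). Of 253 alternatives for single genes, 221 kept the direction with no call, 14 reversed and 20 met the criterion, 2 of which (GADD45B) also reversed. On slide 2, PLK2 had -0.083 and RHOB -0.016; RHOB ran from 0.00013 to 0.30 with each pair left out. With each pair left out, BTG1 ran from -0.68 to 0.36, MAFF from -0.20 to 0.024, CEBPD from -0.74 to 0.19, GADD45B from -0.61 to 0.75 and PLK2 from -0.35 to 0.46; the sign turned without pair 1 for CEBPD, pair 2 for MAFF, pair 3 for BTG1 and GADD45B, and pairs 3 or 4 for PLK2. Without pairs 2 and 3, EGR1 was -0.59, ATF3 -0.30, IER2 -0.25, ZFP36 -0.17, BTG1 0.18 and GADD45B 0.81. The lowest adjusted p in any of these was 0.249 (limma), for JUN with the 8 arrays taken as independent. The cause was not tested. For the 9 genes not above background on all arrays, the offset of 50 draws ratios of dim readings towards 0 by construction.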
